A study of Mus musculus with 18 samples.

Results

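The genes described here are 10 genes of the inflammasome and of pyroptosis, the sensors Nlrp3, Nlrp1b, Nlrc4, Aim2, and Mefv, the adaptor Pycard, the proteases Casp1 and Casp4, the pore former Gsdmd, and the ATP-gated channel P2rx7. They were chosen by name, and all 10 were found among the 29875 genes of the count table by matching Ensembl identifiers to symbols. They were measured by RNA sequencing in 18 libraries of bone marrow–derived DCs from wild-type C57Bl6/J mice aged 8 to 12 weeks. The DCs were grown with GM-CSF, matured with 200 ng/ml LPS for 24 hours from differentiation day 8, and loaded into migration chambers. They sat either in bovine collagen gels of 4 densities (in mg/ml, 1.7 for the loosest, then 2.6 and 3.5, and 4.4 for the densest) with a CCL19 gradient, or in the same chambers without collagen (suspension), and RNA was taken 5 hours after the gradient was set up. Each of the 4 densities and of the 2 suspension groups has 3 replicates, and every group, controls included, had received LPS. The suspension groups are titled plus CCL19 and without CCL19, but their library names give the opposite states, so each is called by its title, and no effect of CCL19 is read from them.

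An inflammasome is a protein platform that assembles in the cytosol when a sensor meets a microbial product or a sign of cell damage. Sensors recruit caspase-1 through the adaptor ASC, and caspase-1 matures the cytokines interleukin-1 beta and interleukin-18 and cuts gasdermin D, whose fragments form pores in the plasma membrane and cause the lytic death called pyroptosis. Mouse Casp4, also called caspase-11, binds LPS in the cytosol and cuts gasdermin D itself, which is the noncanonical route. In myeloid cells LPS signals through TLR4 and NF-kappa B and raises transcription of several of these genes, and all DCs compared here had received it.

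Total counts ranged from 13062944 to 28059839 per library. The library names give the same date and lane to libraries of equal replicate number, so a replicate is also a batch that holds each group once. Xist was read in every library of replicates 1 and 2 (at least 29.3 CPM, library-scaled counts per 1000000) and had 0 counts in replicate 3, where 4 Y-linked genes summed to between 54.7 and 183 CPM. The methods of the study name male mice, so replicates 1 and 2 go against that statement, and date, lane, and this difference cannot be told apart. Each of the 10 dendritic cell markers was expressed and together they reached between 15609 and 52546 CPM, while markers of other myeloid cells were also present. The 8 eosinophil markers summed to 117 to 1339 CPM (median 342) in suspension and to 14.0 to 168 CPM (median 43.0) in collagen, and 7 of 7 tested were lower in collagen. The 12 neutrophil markers summed to 789 to 10094 CPM in suspension and 1198 to 5414 CPM in collagen, and 3 of 12 were lower in collagen. The 10 macrophage markers summed to 426 to 2398 CPM in suspension and 404 to 2674 CPM in collagen, with 0 of 10 called (6 of 10 higher with the replicate as a block). These marker counts are edgeR calls at an FDR of 0.1. Among all genes tested, 12.4% were lower and 7.78% higher without the block. With the block 19.3% were lower and 15.6% higher. In bulk samples fewer cells of a type and less RNA per cell cannot be told apart, and the part of these other cells in the results below was not tested.

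The promoters of the genes on which the results turn are shown first, 250 bases before to 50 bases after a transcription start, as RefSeq gives them for GRCm38.p6. Casp4 and Casp1 are neighbors on chromosome 9, both on the plus strand and 1562 bases apart, so their promoters allow a direct comparison. Capitals mark a kappa B motif, the kind of site that NF-kappa B binds, written as GGGNNNNNCC and searched on both strands. The sequence of Casp4 is chr9:5308599-5308898, that of Casp1 is chr9:5298267-5298566, that of Nlrc4 is chr17:74459059-74459358 on the minus strand, and that of Aim2 is chr1:173420354-173420653.
Casp4: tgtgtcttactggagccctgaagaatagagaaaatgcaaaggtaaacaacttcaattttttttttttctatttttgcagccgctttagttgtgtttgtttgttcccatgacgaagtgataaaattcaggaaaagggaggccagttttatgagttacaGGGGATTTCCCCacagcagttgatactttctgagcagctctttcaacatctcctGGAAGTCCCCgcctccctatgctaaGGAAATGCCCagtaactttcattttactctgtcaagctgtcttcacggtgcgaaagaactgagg
Casp1: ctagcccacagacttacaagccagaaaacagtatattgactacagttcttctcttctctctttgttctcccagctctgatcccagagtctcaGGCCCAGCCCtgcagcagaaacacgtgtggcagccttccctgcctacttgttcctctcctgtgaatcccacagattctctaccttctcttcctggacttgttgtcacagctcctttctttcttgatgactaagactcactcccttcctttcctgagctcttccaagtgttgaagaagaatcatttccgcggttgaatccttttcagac
Nlrc4: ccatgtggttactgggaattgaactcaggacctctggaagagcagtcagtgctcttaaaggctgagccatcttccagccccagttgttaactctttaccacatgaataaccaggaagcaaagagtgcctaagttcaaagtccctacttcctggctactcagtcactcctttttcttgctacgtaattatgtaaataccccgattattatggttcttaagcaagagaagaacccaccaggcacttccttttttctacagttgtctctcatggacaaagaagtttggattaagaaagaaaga
Aim2: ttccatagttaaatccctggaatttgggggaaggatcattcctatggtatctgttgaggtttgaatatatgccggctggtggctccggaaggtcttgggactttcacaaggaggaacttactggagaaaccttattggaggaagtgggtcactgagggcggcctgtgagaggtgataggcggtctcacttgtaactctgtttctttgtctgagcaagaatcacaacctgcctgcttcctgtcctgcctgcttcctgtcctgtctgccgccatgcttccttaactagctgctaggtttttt
The Casp4 promoter held 5 kappa B matches in 3 separate stretches, since 3 of the matches overlap within a single run of 12 bases, and the Casp1 promoter held 1. No match was found in these windows of Nlrc4 and Aim2. The Aim2 window lies inside the gene span used for counting (chr1:173350879-173466040), so the upstream end of that span was not searched. The motif is common, because 50.8% of all 32851 promoters in the table hold it, and 7 of the 13 promoters listed for 9 of the 10 genes did. An ETS core (GAGGAA), the kind of site bound by the myeloid factor PU.1, was in 28.3% of all promoters and in 7 of these 13, including that of Aim2. An interferon response motif (GAAANNGAAA, 3.44% of all promoters) and a STAT motif (TTCNNNGAA, 8.3%) were in 0 of the 13. These are matches of letters and do not show binding.

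Expressed per length of exon, the levels of the 10 genes spanned a wide range. Gsdmd was the highest in every library, with a median of 94.5 CPM per kilobase in suspension and 94.2 in collagen. Casp1 (21.6 in suspension and 26.4 in collagen), Pycard (16.8 and 14.9), and Nlrp3 (11.1 and 9.99) followed, but these neighbors changed places between libraries, with Casp1 above Pycard in 4 of 6 suspension and 10 of 12 collagen libraries. Aim2 (3.81 and 6.50 CPM per kilobase) and Casp4 (2.88 and 6.32) came next and were not separated from each other in collagen, where Aim2 was above Casp4 in 7 of 12 libraries. Nlrc4, P2rx7, and Mefv were lower still. In suspension Nlrc4 (0.777) stood below P2rx7 (1.16) and Mefv (0.886), whereas in collagen Nlrc4 (2.07) was above Mefv (1.13) in 12 of 12 libraries. Nlrp1b was near 0, with a median of 0.0658 CPM per kilobase in suspension and 0.0117 in collagen.

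**Figure D1:**
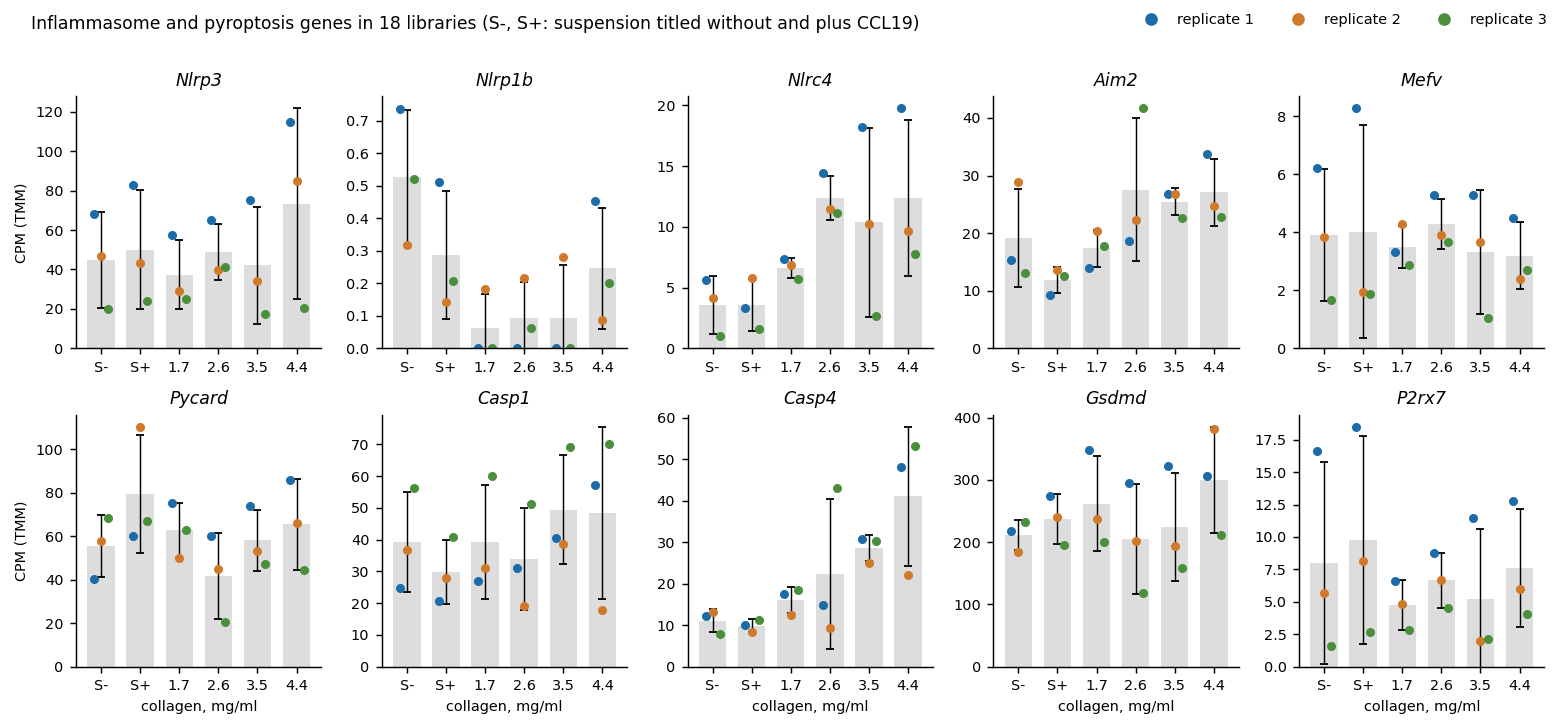
Level of each of the 10 genes in CPM (vertical axes, linear, starting at 0) in the 6 groups (horizontal axes). Points are single libraries colored by replicate, bars are group means, and error bars are SD over 3 libraries, cut where they would pass below 0. Casp4 and Nlrc4 have higher means in collagen than in suspension, with overlap between single libraries. For Nlrp3 and P2rx7 every library of replicate 1 lies above every library of replicate 3, whereas these replicates of Casp1 overlap.

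The comparison of all 12 collagen with all 6 suspension libraries asks whether the cells' surroundings moved these genes. Of the 9 genes that passed the filter on low counts, 3 were higher in collagen and 0 were lower at an FDR of 0.1 (edgeR, without a replicate block), and they were the protease Casp4 and the sensors Nlrc4 and Aim2. Among all 13844 genes tested, 20.2% were called in this comparison, 7.78% as higher and 12.4% as lower. The median log2 fold change of the 9 genes was 0.13, beside 0.00 over all genes tested. With the replicate as a block the same 3 genes were called, against a background of 34.8% of all genes, 15.6% as higher and 19.3% as lower. The 9 genes had at least 14 counts in every library, so none of them passed the filter through its higher group alone. Eosinophil markers moved in the opposite direction over the same libraries, as given above, and their part was not tested.

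Casp4 (ENSMUSG00000033538, GRCm38 chr9:5308828-5336783, plus strand), the cytosolic LPS receptor, measured 12.1, 13.1, and 7.83 CPM in suspension titled without CCL19 and 10.1, 8.23, and 11.3 CPM in suspension titled plus CCL19, in the order of replicates 1, 2, and 3. In collagen it measured 17.5, 12.5, and 18.4 CPM at 1.7 mg/ml, 14.8, 9.18, and 43.0 CPM at 2.6 mg/ml, 30.7, 24.9, and 30.2 CPM at 3.5 mg/ml, and 48.1, 22.0, and 53.3 CPM at 4.4 mg/ml. The suspension libraries lay close together and 10 of the 12 collagen libraries stood above all of them, with replicate 2 at 1.7 and 2.6 mg/ml inside the suspension range. The mean was 10.4 ± 2.13 CPM (SD, n = 6) in suspension and 27.0 ± 14.4 CPM (SD, n = 12) in collagen, a log2 fold change of 1.29 ± 0.30 (SE, adjusted p = 0.0098). The difference was positive in 3 of 3 replicates, at 1.16, 0.60, and 1.83 in mean log2 CPM for replicates 1, 2, and 3. Casp4 was called under every alternative that was run for this comparison.

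Nlrc4 (ENSMUSG00000039193, GRCm38 chr17:74425438-74459142, minus strand), the sensor that NAIP proteins activate after they bind flagellin or parts of bacterial secretion systems, was a gene of low level. It measured 5.64, 4.15, and 0.985 CPM in suspension titled without CCL19 and 3.32, 5.79, and 1.58 CPM in suspension titled plus CCL19. In collagen it measured 7.32, 6.84, and 5.68 CPM at 1.7 mg/ml, 14.5, 11.5, and 11.1 CPM at 2.6 mg/ml, 18.2, 10.3, and 2.68 CPM at 3.5 mg/ml, and 19.8, 9.65, and 7.74 CPM at 4.4 mg/ml. Over all libraries the groups overlapped through replicate 3, which was low in suspension and at 3.5 mg/ml, yet within each of the 3 replicates all 4 collagen libraries stood above both suspension libraries. That pattern was found in 2.43% of the genes tested, and Nlrc4 was the only one of the 10 genes to show it. The mean rose from 3.58 ± 2.01 CPM (SD, n = 6) to 10.4 ± 5.04 CPM (SD, n = 12), a log2 fold change of 1.5 ± 0.42 (SE, adjusted p = 0.027), and of 1.60 ± 0.30 (SE, adjusted p = 0.00081) with the replicate block. Nlrc4 was not called without replicate 2 as a whole (1.90, adjusted p = 0.16).

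Aim2 (ENSMUSG00000037860, GRCm38 chr1:173350879-173466040, plus strand), which detects double-stranded DNA in the cytosol, measured 15.3, 28.8, and 13.1 CPM in suspension titled without CCL19 and 9.25, 13.6, and 12.5 CPM in suspension titled plus CCL19. It measured 13.9, 20.4, and 17.7 CPM at 1.7 mg/ml, 18.6, 22.3, and 41.7 CPM at 2.6 mg/ml, 26.7, 26.8, and 22.7 CPM at 3.5 mg/ml, and 33.7, 24.7, and 22.8 CPM at 4.4 mg/ml. In suspension titled without CCL19, replicates 1 and 2 lay within the collagen range. Replicate 2 at 28.8 CPM stood above most collagen libraries, and 11 of the 12 collagen libraries were above the other 5 suspension libraries. The mean was 15.4 ± 6.86 CPM (SD, n = 6) in suspension and 24.3 ± 7.45 CPM (SD, n = 12) in collagen, a log2 fold change of 0.68 ± 0.22 (SE, adjusted p = 0.054), and the difference was positive in 3 of 3 replicates. This was the least firm of the 3 calls, since it was lost without replicate 1 (0.62, adjusted p = 0.11) or replicate 3 (0.57, adjusted p = 0.14) of suspension titled without CCL19, without replicate 1 of suspension titled plus CCL19 (0.62, adjusted p = 0.10), and without any whole replicate. With the replicate block it was called (0.70 ± 0.21, adjusted p = 0.019) and kept the call without any single library.

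The other sensors, the adaptor, Casp1, Gsdmd, and P2rx7 were not called. Nlrp3 (ENSMUSG00000032691, GRCm38 chr11:59541568-59566956), which responds to potassium loss and other signs of membrane damage, measured 19.8 to 83.1 CPM (median 44.9) in suspension and 17.5 to 115 CPM (median 40.5) in collagen. The log2 fold change was 0.04 ± 0.39 (SE), and the interval of -0.72 to 0.80 (normal approximation from the SE) contains changes of that size in either direction. Pycard, which encodes the adaptor ASC (ENSMUSG00000030793, chr7:127989708-127993867), measured 40.1 to 110 CPM (median 63.7) in suspension and 20.3 to 85.9 CPM (median 56.6) in collagen, with a log2 fold change of -0.24 ± 0.23 (SE, adjusted p = 0.54). Its exons share 485 bases with Gm45205 on the opposite strand, which had 17 counts in all 18 libraries together, and whether counting used strand is not stated in the sources used here.

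Casp1 (ENSMUSG00000025888, chr9:5298517-5307265), the protease of the canonical inflammasome and the neighbor of Casp4, measured 20.7 to 56.2 CPM (median 32.4) in suspension and 17.9 to 70.1 CPM (median 39.6) in collagen. Its log2 fold change was 0.31 ± 0.31 (SE, adjusted p = 0.57), and the sign turned to -0.16 with offsets for GC content and length. Gsdmd (ENSMUSG00000022575, chr15:75862327-75867408), the pore former that both caspases cut, was at 224 ± 32.7 CPM (SD, n = 6) in suspension and 248 ± 81.3 CPM (SD, n = 12) in collagen, a log2 fold change of 0.13 ± 0.22 (SE, adjusted p = 0.74). Casp4 thus passed the test and its neighbor Casp1 did not, but the difference between their fold changes was not tested.

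Mefv, which encodes the sensor pyrin (ENSMUSG00000022534, chr16:3707218-3718097), measured 1.68 to 8.28 CPM (median 2.88) in suspension and 1.04 to 5.28 CPM (median 3.66) in collagen. Its log2 fold change was -0.16 ± 0.39 (SE, adjusted p = 0.83), and the sign turned with the replicate block (0.01). P2rx7 (ENSMUSG00000029468, chr5:122643911-122691432), the channel through which extracellular ATP sets off potassium loss, measured 1.57 to 18.5 CPM (median 6.92) in suspension and 1.97 to 12.8 CPM (median 5.40) in collagen, with a log2 fold change of -0.57 ± 0.49 (SE, adjusted p = 0.49). The suspension groups of both genes were spread more widely than the collagen groups, because replicate 1 was high and replicate 3 low.

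Nlrp1b (ENSMUSG00000070390, chr11:71153102-71230733, minus strand), the sensor of anthrax lethal factor, did not pass the filter and has no value in the fit. It had 19, 7, and 9 counts in suspension titled without CCL19 and 10, 2, and 5 counts in suspension titled plus CCL19. In collagen the counts were 0, 3, and 0 in the 1.7 mg/ml gels, 0, 3, and 2 in the 2.6 mg/ml gels, 0, 4, and 0 in the 3.5 mg/ml gels, and 10, 1, and 4 in the densest gels. The 52 counts over 6 suspension libraries stood against 27 over 12 collagen libraries, 5 of which had 0 counts, which allows up to 3 counts each. The mean log2 CPM was lower in collagen in 3 of 3 replicates, with differences of -2.14, -0.17, and -1.49 in replicates 1, 2, and 3. Replicate 2 thus differed little. Reads of Nlrp1b can match its paralogs Nlrp1a and Nlrp1c-ps, and how such reads were counted is not stated in the sources used here, so these few counts are uncertain.

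As a check that rests on no model of the counts, an exact two-sided permutation test over the 18 libraries compared mean log2 CPM for each of the 10 genes, with no adjustment for their number. The unadjusted exact p was 0.0018 for Nlrc4, 0.0033 for Casp4, 0.0080 for Nlrp1b, and 0.0091 for Aim2, and between 0.36 and 0.95 for the other 6 genes. When labels were permuted within replicates, the exact p was 0.00030 for Nlrc4, 0.0036 for Casp4, 0.0089 for Nlrp1b, and 0.012 for Aim2. For Aim2 the exact p was 0.072 on CPM of total counts. The genes were chosen with results of these data known, so these values are no independent evidence.

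**Figure D2:**
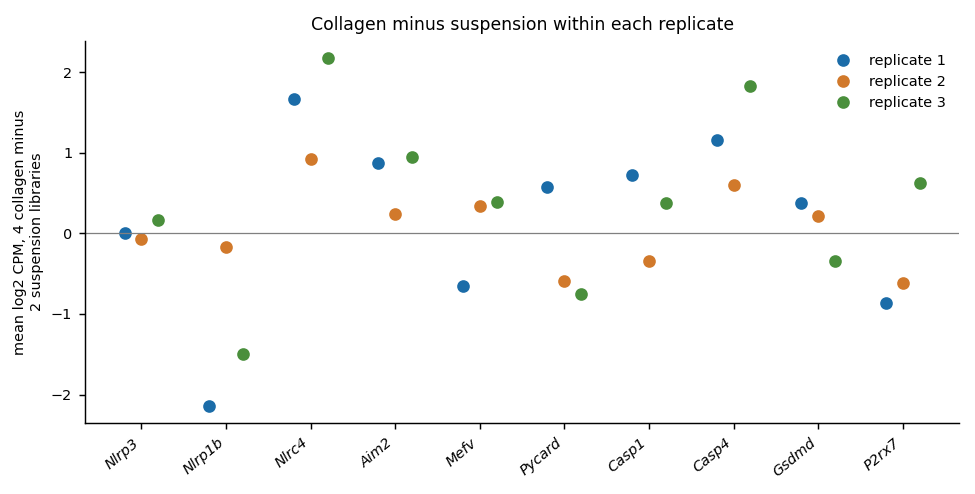
Difference in mean log2 CPM between the 4 collagen and the 2 suspension libraries of each replicate (vertical axis) for the 10 genes (horizontal axis), with a point per replicate. Nlrc4, Casp4, and Aim2 lie above 0 and Nlrp1b below 0 in all 3 replicates, with Nlrp1b at only -0.17 in replicate 2. The other 6 genes have points on both sides.

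Several of these genes also differed between the replicates. P2rx7 measured 6.62 to 18.5 CPM in the 6 libraries of replicate 1, 1.97 to 8.15 in replicate 2, and 1.57 to 4.55 in replicate 3, so that replicates 1 and 3 did not overlap. Nlrp3 went the same way, with 57.5 to 115 CPM in replicate 1 and 17.5 to 41.1 in replicate 3. Casp1 went the other way, with 20.7 to 57.3 CPM in replicate 1 and 40.7 to 70.1 in replicate 3, which overlap. In the fit with the replicate block, the replicate terms passed an FDR of 0.1 for 6 of the 9 genes (Nlrp3, P2rx7, Casp1, Nlrc4, Mefv, and Gsdmd, with adjusted p between 0.00012 and 0.023), where 48.3% of all genes did. Aim2, Casp4, and Pycard did not pass. The summed macrophage markers had medians of 2442, 1051, and 508 CPM in replicates 1, 2, and 3. Other marker sums differed in other orders. In the same replicate order, the medians were 25364, 33914, and 47555 CPM for the dendritic cell markers. They were 1247, 4423, and 2872 CPM for the neutrophil markers and 49.6, 139, and 39.8 CPM for the eosinophil markers. The part of any of these cells in the replicate differences was not tested. The test of the replicate terms was added after the values had been seen.

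The densities were next set against the same 6 suspension libraries, so the 4 comparisons share their controls. At 1.7 mg/ml 0 of the 9 genes were called by edgeR, where 0.0361% of all genes were, and 0 of 9 had an unadjusted p below 0.05. DESeq2 also called 0 of 9, where it called 1.02% of all genes, and with the replicate block it called Nlrc4 and 7.91% of all genes, while edgeR with the block called 0 of 9 against 2.91% of all genes. At 2.6 mg/ml Nlrc4 was called (7.87% of all genes were), and at 3.5 mg/ml Casp4 was called (4.9% of all genes). At 4.4 mg/ml Casp4, Nlrc4, and Aim2 were called as higher, with 14.8% of all genes called and 6.55% called as higher. With the replicate block all 3 genes were called in the gels of 2.6 mg/ml (21.6% of all genes) and 3.5 mg/ml (18.4%) as well as in the densest (31.9%, and 15.8% as higher), and no other of the 9 was called.

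The fitted values of Casp4 were larger at each successive density, with log2 fold changes against suspension of 0.63 ± 0.39, 1.10 ± 0.38, 1.45 ± 0.38, and 1.98 ± 0.38 (SE) from the loosest to the densest gel. The adjusted p was 0.75, 0.11, 0.063, and 0.0049, and with the block 0.42, 0.069, 0.010, and 0.00054. Group means were 16.1 ± 3.19, 22.3 ± 18.1, 28.6 ± 3.23, and 41.1 ± 16.8 CPM (SD, n = 3 each), and the wide spread at 2.6 mg/ml came from replicate 3 of that density, which at 43.0 CPM stood far above replicates 1 and 2. This library is also the deepest of the series, and without it the log2 fold change at 2.6 mg/ml was 0.24, with or without the block. In fits that each left out 1 library, the value at 1.7 mg/ml was 0.52 to 0.78, and 0.39 to 0.82 with the block. The order of 1.7 and 2.6 mg/ml thus rested on this library. The call that the block gave at 2.6 mg/ml was kept in 15 of the 18 fits that each left out 1 library. At 3.5 mg/ml the call rested on each of the 3 collagen libraries, since without replicate 1, 2, or 3 the log2 fold change was 1.40, 1.54, or 1.41 and the adjusted p was 0.19, 0.12, or 0.18. It was also lost without replicate 3 of suspension titled without CCL19 (1.35, adjusted p = 0.12) and without replicate 2 of suspension titled plus CCL19 (1.39, adjusted p = 0.12). With the replicate block the call at 3.5 mg/ml held without any single library.

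Nlrc4 did not follow the density step by step, since its log2 fold changes were 0.89 ± 0.54, 1.79 ± 0.53, 1.54 ± 0.54, and 1.79 ± 0.53 (SE). The adjusted p was 0.75, 0.074, 0.14, and 0.045, and with the block 0.17, 0.0029, 0.021, and 0.0018. Its group means of 6.61 ± 0.846, 12.4 ± 1.83, 10.4 ± 7.78, and 12.4 ± 6.46 CPM (SD, n = 3 each) show that the 3 libraries lay close together in the looser 2 gels and were widely spread in the denser 2. Without replicate 1 at 4.4 mg/ml the call there was lost (1.28, adjusted p = 0.26), and at 2.6 mg/ml it was lost without replicate 1 (1.65), 2 (1.84), or 3 (1.91) of that density or without replicate 3 of suspension titled without CCL19 (1.57) or plus CCL19 (1.61). With the replicate block both calls held without any single library. The wide spread at 3.5 mg/ml came from replicate 1 (18.2 CPM) and replicate 3 (2.68 CPM), and without replicate 1 of that density the log2 fold change there fell to 0.85 (1.01 and no longer called with the block).

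Aim2 had log2 fold changes of 0.21 ± 0.30, 0.88 ± 0.30, 0.76 ± 0.30, and 0.85 ± 0.30 (SE) at the 4 densities, with adjusted p of 0.93, 0.105, 0.19, and 0.082, and with the block of 0.77, 0.040, 0.076, and 0.027. Its means were 17.3 ± 3.22, 27.5 ± 12.4, 25.4 ± 2.35, and 27.1 ± 5.82 CPM (SD, n = 3 each), so the loosest gel lay nearest to suspension. The value at 2.6 mg/ml rested on replicate 3 of that density (41.7 CPM), without which it was 0.48, and 0.43 with the block. With the block the call at 2.6 mg/ml was kept in 16 and that at 3.5 mg/ml in 10 of the 18 fits that each left out 1 library. At 4.4 mg/ml the call without the block was lost in 10 of the 18 fits that each left out 1 library, with log2 fold changes of 0.66 to 0.96 in those fits, and with the block it was lost only without replicate 1 at 4.4 mg/ml (0.55, adjusted p = 0.22). Nlrp3 was highest at 4.4 mg/ml (73.4 ± 48.5 CPM, SD, n = 3), but replicate 3 there measured 20.2 CPM, inside the suspension range, and the log2 fold change of 0.63 ± 0.54 (SE, adjusted p = 0.50) did not pass, nor did that of 0.55 with the block (adjusted p = 0.15). Nlrp3 was called at 4.4 mg/ml by DESeq2 with the block (0.62, adjusted p = 0.091), where 36.3% of all genes were called, and by edgeR with the block and offsets for GC content and length (0.69, adjusted p = 0.053), where 34.8% were. It was also called in 2 of the 18 fits with the block that each left out 1 library, with a lowest adjusted p of 0.035.

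**Figure D3:**
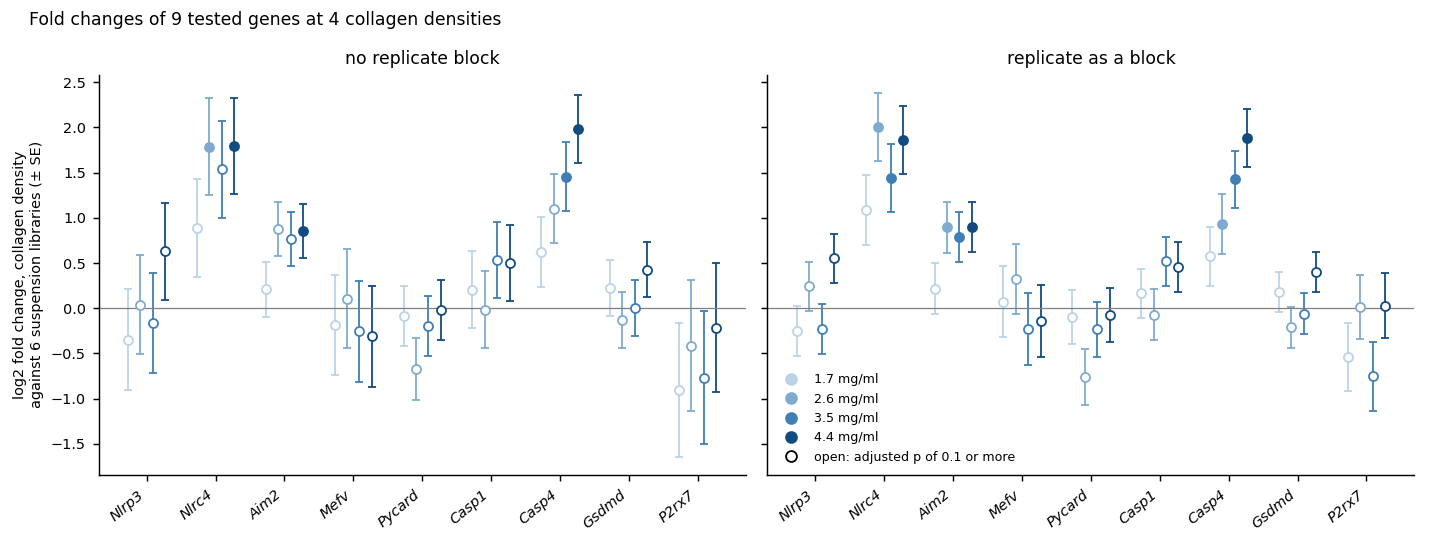
Log2 fold change of the 9 tested genes (horizontal axis) at each collagen density against the 6 suspension libraries (vertical axis), with SE as error bars, without (left) and with (right) the replicate as a block. Filled points passed an FDR of 0.1. Without the block Casp4 is at 0.63 at 1.7 mg/ml and at 1.98 at 4.4 mg/ml, but its density trend was not called in that fit. Nlrc4 and Aim2 have similar values from 2.6 mg/ml onward.

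Within collagen, a linear trend over the 4 densities was tested, and the densest gel was set against the loosest. No trend passed for the 9 genes (edgeR, 0 of 9, with 1 of 9 at an unadjusted p below 0.05, and 0.00722% of all genes called), and with the block 0 of 9 passed where 1.45% of all genes did. The comparison of 4.4 with 1.7 mg/ml gave 0 of 9 (1 of 9 at an unadjusted p below 0.05, and 0.00722% of all genes called), and with the block 0 of 9 where 1.73% of all genes passed. DESeq2 gave 0 of 9 in both, where it called 0.881% of all genes for the trend and 1.06% for the ends. Casp4 came nearest, with a slope of 0.49 ± 0.16 (SE, adjusted p = 0.46) on the log2 scale per mg/ml and an adjusted p of 0.11 with the block. Its log2 difference between 4.4 and 1.7 mg/ml was 1.35 ± 0.46 (SE, adjusted p = 0.46). DESeq2 with the replicate block called both Casp4 values (adjusted p = 0.013 for the trend and 0.023 for the ends), where it called 5.86% and 6.63% of all genes. So did edgeR with the block and offsets for GC content and length (adjusted p = 0.012 and 0.016), where 5.05% and 6.72% of all genes were called.

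Between the suspension groups 0 of the 9 genes were called by edgeR, with or without the block, where 0% of all genes were, and 0 of 9 had an unadjusted p below 0.05. DESeq2 without the block also called 0 of 9 and 0% of all genes. With the block DESeq2 called 1.40% of all genes, and the edgeR fit without the filter on low counts called 0.0335%. The largest difference was that of Aim2, whose level in suspension titled plus CCL19 was lower by a log2 value of -0.70 ± 0.35 (SE, adjusted p = 0.76), with means of 11.8 ± 2.26 and 19.1 ± 8.51 CPM (SD, n = 3 each).

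The 3 called genes also varied together from library to library. After log2 CPM was centered within each replicate, Pearson's r over the 18 libraries was 0.84 between Aim2 and Casp4, 0.79 between Nlrc4 and Casp4, and 0.78 between Nlrc4 and Aim2, and these libraries hold the same group differences. Pycard and Gsdmd formed a second pair with r = 0.67, and Casp1 followed Casp4 and Aim2 alike, each at r = 0.56. The genes whose centered profile was most like that of Casp4 were Cd69 (r = 0.93), Gpbp1 (0.93), Tex30 (0.93), Hspa13 (0.93), and Cop1 (0.92), of 13843 genes compared. Those most like Nlrc4 were Nod1 (r = 0.93), Spp1 (0.92), P2ry14 (0.91), P2ry10b (0.91), and Clec4e (0.91). Of these, Nod1 is a cytosolic sensor of bacterial peptidoglycan, Spp1 encodes osteopontin, and Clec4e encodes the receptor Mincle.

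Beyond the 10 genes, 73 other genes of the pathway were listed in 6 groups, of which 62 passed the filter. In collagen against suspension 6 of the 62 were higher and 9 lower, where 7.78% of all genes were higher and 12.4% lower, with a median log2 fold change of -0.01 beside 0.00 over all genes. With the block 16 were higher and 16 lower, where 15.6% and 19.3% of all genes were. The counts of the single lists below, of 3 to 19 genes each, are to be read against the same shares. Here and at 4.4 mg/ml, the higher counts include Gsdmc4 and the lower counts include Nlrp12. Both passed the filter through the group where they are high, so nothing is read from their calls. At 4.4 mg/ml 6 of the 62 were higher and 5 lower, where 14.8% of all genes were called in either direction. With the block 23 were higher and 11 lower there, where 31.9% of all genes were called and 15.8% called as higher. The median log2 fold change at this density was 0.26 without and 0.29 with the block, beside 0.0050 and 0.019 over all genes. For the density trend 0 were called (2 higher and 1 lower with the block, where 1.45% of all genes were called).

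Among 19 tested sensors and adaptors, 5 were lower in collagen and 0 higher, with a median log2 fold change of -0.46 (8 lower and 2 higher with the block). The lower genes were Nlrp12, Card6, Nlrx1, Naip6, and Nod2, and these counts include Nlrp12 although its call is set aside below. Nlrp12, a member of the NLR family, fell by 2.97 on the log2 scale (SE 0.64, adjusted p = 0.0069), from 0.767 to 2.57 CPM in suspension to 0 to 0.723 CPM in collagen. It reached 10 counts in all 6 suspension but only 2 of the 12 collagen libraries and so passed the filter through the group where it is high, and nothing is read from its call. Card6 fell by 2.09 (SE 0.33, adjusted p = 0.0010), from 3.71 to 7.41 CPM to 0.0999 to 3.00 CPM. Nlrx1, a mitochondrial NLR, fell by 1.27 (SE 0.25, adjusted p = 0.0038) and Naip6, of the NAIP family that works with NLRC4, by 0.88 (SE 0.32, adjusted p = 0.077). Naip1 (-0.24, adjusted p = 0.90), Naip2 (-0.0010, adjusted p = 0.999), and Naip5 (-0.35, adjusted p = 0.39) were not called. Naip2 stood far higher than Naip6, at 43.7 to 127 CPM in suspension beside 3.69 to 13.6 CPM. The Naip genes are close copies of each other, so their counts are uncertain where reads match several.

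The cytokines that caspase-1 matures, with their relatives and inhibitors, gave 2 higher and 0 lower of 6 tested. Il1b measured 127 to 805 CPM (median 325) in suspension and 373 to 3131 CPM (median 1329) in collagen, a log2 fold change of 1.92 ± 0.49 (SE, adjusted p = 0.016), and it was higher in 3 of 3 replicates. Il1a, whose release is also tied to pyroptosis, rose by 2.09 ± 0.63 (SE, adjusted p = 0.038). Il18, the other substrate, was at 2.25 to 3.94 CPM in suspension and 2.10 to 7.58 CPM in collagen and was not called (0.54 ± 0.29, SE, adjusted p = 0.23).

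Of 3 tested genes for other gasdermins and for membrane rupture, 1 was called, Gsdmc4, at 0 to 0.0911 CPM in suspension and 0.0611 to 1.71 CPM in collagen (2.64 ± 0.61, SE, adjusted p = 0.011). That is at most 32 counts in a library and at most 2 in suspension, so Gsdmc4 passed the filter only through collagen, where it is high, and nothing is read from its call. It also has close copies next to it in the genome. Ninj1, which encodes the protein that ruptures the membrane after pores form, was not called (0.31 ± 0.37, SE, adjusted p = 0.64).

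In the noncanonical route upstream of Casp4, 3 of 9 tested genes were lower and 0 higher without the block, and 4 were lower and 3 higher with it. Irf1, a transcription factor of the interferon response, fell by 0.61 (SE 0.16, adjusted p = 0.019), from 92.9 to 186 CPM in suspension to 69.7 to 102 CPM in collagen. Gbp7, a guanylate-binding protein, fell by 1.13 (SE 0.42, adjusted p = 0.083) and Irgb10, which helps to expose bacterial LPS and DNA, by 1.06 (SE 0.38, adjusted p = 0.071). The 3 genes called higher with the block were Gbp2 (0.48, adjusted p = 0.079), Tlr4 (0.87, adjusted p = 0.055), and Cd14 (0.90, adjusted p = 0.020), named after their values were seen.

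Of 15 activators and inhibitors of NLRP3, 2 were higher and 0 lower (4 higher and 1 lower with the block). Cybb, the catalytic subunit of the phagocyte NADPH oxidase, rose by 1.23 ± 0.28 (SE, adjusted p = 0.0096), from 132 to 398 CPM in suspension to 296 to 971 CPM in collagen. Rragc, a Rag GTPase at the lysosome, rose by 0.87 ± 0.19 (SE, adjusted p = 0.0072). Nek7, the kinase that binds NLRP3 during its assembly, was not called (0.24 ± 0.25, SE, adjusted p = 0.59).

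Of 10 genes that link pyroptosis with other forms of cell death, 1 was higher and 1 lower (4 higher and 3 lower with the block). Ripk1, a kinase at the branch of survival, apoptosis, and necroptosis, rose by 0.86 ± 0.21 (SE, adjusted p = 0.014), and Fadd, its adaptor to caspase-8, fell by 0.69 (SE 0.18, adjusted p = 0.019). Casp8 itself was at 42.8 to 96.6 CPM in suspension and 39.3 to 118 CPM in collagen, with a log2 fold change of 0.02 ± 0.26 (SE, adjusted p = 0.98).

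**Figure D4:**
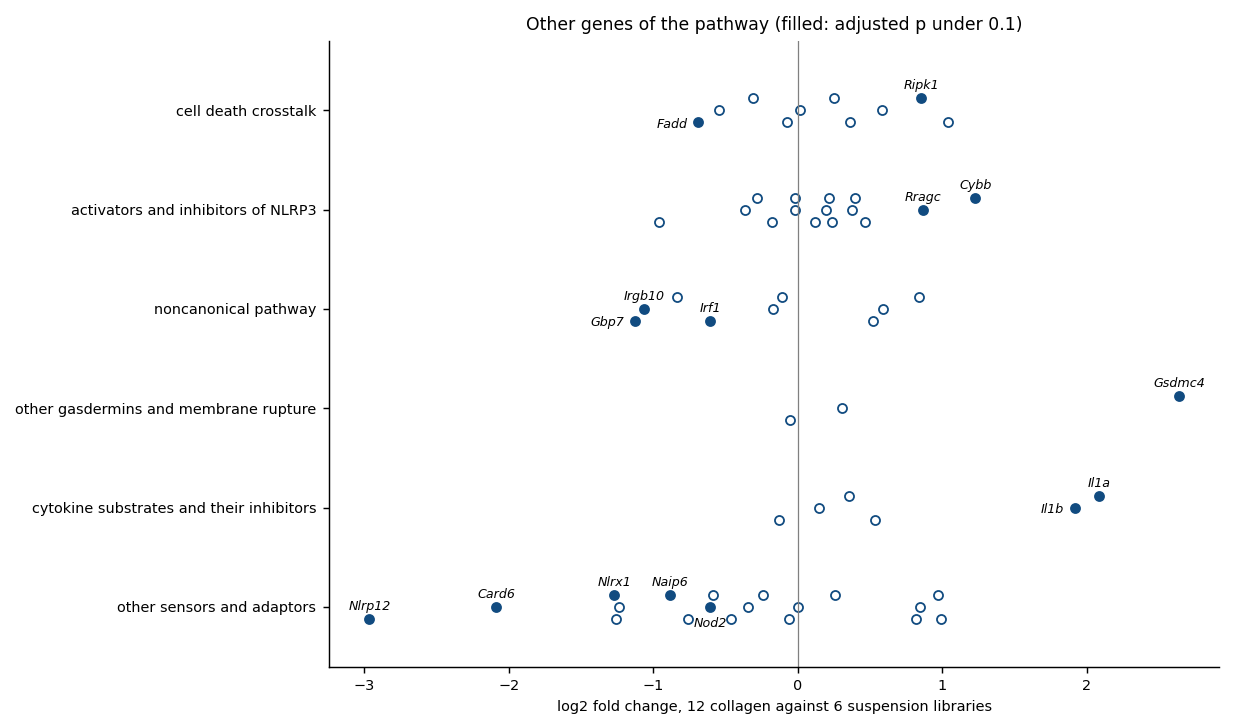
Log2 fold change of 62 other genes of the pathway in the 12 collagen against the 6 suspension libraries (horizontal axis), by list (vertical axis, points staggered so that they can be seen). Filled, named points passed an FDR of 0.1 without the replicate block. The called sensors lie at or below -0.60 and Il1b and Il1a near 2. Nlrp12 and Gsdmc4 passed the filter through the group where they are high, so nothing is read from their points.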

How the data were processed

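RNA was measured in 18 libraries of mouse DCs. The table deposited by the authors holds raw read counts (whole numbers) for each Ensembl gene. Per the labels and the study's methods, libraries were made with a stranded mRNA kit and reads were aligned with STAR 2.7.0f to GRCm38. The methods name RSEM for TPM values, which are not used here, and the tool that gave the whole-number counts is not given in the sources used here. Symbols, positions, and exon lengths were taken from a GENCODE annotation of GRCm38, and 29850 of 29875 identifiers matched.

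Counts were filtered (filterByExpr), scaled (TMM), and tested with edgeR 4.0.16 (quasi-likelihood, Benjamini-Hochberg, FDR 0.1) in R 4.3.3 in a single fit over all libraries without a block. Each SE is the log2 fold change over the root of F. Library sizes for CPM were TMM-scaled, and log2 CPM had a prior count of 2. Same-numbered libraries share date and lane, so the numbers pair them (mean r of deviations 0.43 over 45 pairs, below 0.1 in 6). Alternatives were the replicate block, DESeq2 1.42.0, other scaling, no filter, an FDR of 0.05, GC and length offsets, and omission of libraries.

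The genes, lists, and tests were chosen with earlier results of these data known. The other genes named were, per list, those past the threshold (at most 4 with the largest fold change, and also Nod2, named after its value was seen), with Il1b, Il18, Nek7, Casp8, and Ninj1. Naip1, Naip2, Naip5, Gbp2, Tlr4, and Cd14 were also named after their values were seen. The fit was tested on simulated data. Irgb10 was matched as Gm12250, and 1 listed gene, Gsdma3, was not matched. The labels call the replicates biological without naming cultures or animals, so p-values measure the spread between these libraries.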

Additional observations from a re-analysis of the deposited data

Results flagged for a closer look

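Among the 6 suspension libraries, Aim2 had a value that stood apart, at 28.8 CPM in replicate 2 titled without CCL19, with the other 5 between 9.25 and 15.3 CPM. The gap to its nearest neighbor was 0.689 of the whole range, above Dixon's limit for 6 values. The other 9 genes had no such library, and chance alone gives about 1 such gap in 20 groups. Without that library the log2 fold change of Aim2 in collagen against suspension was 0.90, beside 0.68 with it. The cause was not tested.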

How the results depend on the processing

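In collagen against suspension Casp4 kept its call under all 46 alternatives, Nlrc4 under 45, and Aim2 under 39, all in the same direction. The replicate block, which pairs libraries by number, raised the count of called genes from 1 to 3 in both middle gels (2.6 and 3.5 mg/ml) and changed the count in no other comparison. The calls at these densities depended most on the settings. At 2.6 mg/ml 3 genes were called by DESeq2 (13.2% of all genes were). DESeq2 with the block called 4 (26.5%), with Pycard as lower and the other 3 as higher. Calls numbered 2 with DESeq2 size factors (7.97%), 2 without the filter (4.11%), and 2 with GC and length offsets and the block (24.4%). With only the libraries compared 0 were called (1.98%). At an FDR of 0.05 without the block the count was 0, where 444 of all 13844 genes passed. At 3.5 mg/ml 3 were called by DESeq2 (9.70%), 3 by DESeq2 with the block (23.1%), 2 without the filter (2.36%), and 3 with the offsets (18.5%). The count there was 0 at an FDR of 0.05 without the block, where 220 of all 13844 genes passed. DESeq2 with the block (7.91%) and edgeR with the offsets and the block (4.65%) each called 1 gene at 1.7 mg/ml, and each called Casp4 for the trend and for 4.4 against 1.7 mg/ml, with the shares of all genes given above. That is 1 of 9 genes for each. Fits that left out a replicate or a library, with the block (added after seeing the data) or without it, called 0 to 1 gene at 1.7 mg/ml, for the trend, and for 4.4 against 1.7 mg/ml, 0 to 4 at 2.6 and 3.5 mg/ml, and 1 to 4 at 4.4 mg/ml. The shares of all genes in those fits are not given here. With all libraries the share at 2.6 mg/ml was 7.87% without and 21.6% with the block, so nothing is read from these ranges.

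Among the values reported, signs turned only for genes that were not called. In collagen against suspension Casp1 was at -0.16 with the offsets, and Mefv at 0.0078 with the block, 0.038 with DESeq2 and the block, and 0.071 with the offsets. Left-out libraries gave -0.14 to 0.37 for Nlrp3, -0.012 to 0.32 for Gsdmd, -0.34 to 0.43 for Mefv, and -0.91 to 0.010 for P2rx7. On CPM of total counts, where the median gene was lower in collagen by a log2 value of -0.15, the differences in mean log2 CPM were -0.12 for Nlrp3, -0.075 for Gsdmd, and -0.13 for Mefv. The causes were not tested. Depth limits Nlrp1b, at 0 to 19 counts, more than the other genes.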
